A study of Mus musculus with 24 samples.

Results

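The genes described here are the solute carriers, the membrane proteins whose symbols start with Slc followed by a number, as expressed in mouse calf muscle with and without dexamethasone and with and without the ubiquitin ligase MuRF1. The array annotation named 343 such symbols after Slc30a2, Slc39a14, Slc6a8, Slc2a4 and Slc4a1 were set aside. Probes with a detection p-value under 0.05 on at least 3 of the 24 arrays were kept, and each gene was read from its kept probe of highest mean signal. This left 217 genes among the 16262 features tested. Of the 126 genes not kept, 79 were detected on no array and 47 on 1 or 2 arrays. Within the 217, 93 were detected on all 24 arrays and 40 on 3 to 5 arrays. The families with most members were Slc25, the mitochondrial carriers, with 34, Slc35, the nucleotide sugar transporters, with 20, and Slc7, amino acid transporters, with 12.

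Solute carriers move nutrients, ions, metals and metabolites across the plasma membrane and the membranes of mitochondria, lysosomes and the secretory pathway, either down a gradient or coupled to sodium, protons or a counter-substrate. Skeletal muscle takes up glucose and fatty acids through them, and during wasting it releases amino acids, glutamine and alanine above all, made from its own protein. Glucocorticoids such as dexamethasone, a synthetic agonist of the glucocorticoid receptor, drive that wasting, and MuRF1 (gene Trim63) is a muscle ubiquitin ligase induced in it.

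The study measured total RNA of the triceps surae, the calf muscle group, from C57/Bl6 mice aged 4 months on Illumina bead arrays. Wild-type mice and MuRF1 knockout mice received dexamethasone at 3 mg/kg in the drinking water for 3 or 14 days, or were housed beside the treated animals without the drug as littermate controls. Each of the 8 groups (wild type or knockout, untreated or treated, 3-day or 14-day arm) held 3 arrays. The labels name no animal for an array and do not say how the knockout was made, so the p-values rest on the spread between these arrays, which may be technical.

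The genotype labels were checked on Trim63 first. Its probe read (log2 normalised signal, as for all levels here) 8.45, 8.65 and 8.49 in untreated wild type of the 3-day arm and 4.51, 4.87 and 4.56 in untreated knockout. Over all groups wild-type arrays lay between 8.07 and 9.95 and knockout arrays between 4.46 and 5.16, with no overlap. The tissue label was set against 12 muscle fibre genes, of which 11 were measured; their mean log2 signal lay between 13.85 and 14.15 on every array. Between 29% and 36.1% of all probes were detected per array, and between 61.8% and 75.6% of the members. All probes were counted without a filter, whereas members had been kept for detection and read from their probe of highest signal. The higher share among members therefore cannot be told apart from that choice. One array stood apart: replicate 3 of treated knockout at 3 days scored 70.9 on the first principal component, against -31.9 to 23.7 for the other 23, and it had the highest median member level (5.38, others 5.10 to 5.36). Values without it are given beside the knockout results at 3 days.

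Dexamethasone moved a minority of the carriers, in both directions. In wild type at 3 days 16 of 217 members passed the threshold of an adjusted p under 0.05 (limma, Benjamini-Hochberg over all features), 9 higher and 7 lower, where 3.88% of all features did (1.95% higher and 1.93% lower). At 14 days in wild type the count was also 16, 9 higher and 7 lower, against a background of 2.99% (1.23% higher and 1.76% lower). In knockout at 3 days 20 members passed, 12 higher and 8 lower, against 5.34% (2.85% and 2.5%), and in knockout at 14 days 8 passed, 3 higher and 5 lower, against 3.27% (1.11% and 2.16%). The members' shares were 7.37%, 7.37%, 9.22% and 3.69%, so in knockout at 14 days the share was close to the background. The 2 sets are unlike, here and below. Every member is a named gene, whereas 11010 of the 16262 features had a gene symbol and the rest were unnamed probes taken singly. The share among named genes alone was not computed. These 60 calls fell on 39 members: 24 were called in 1 of the 4 comparisons, 11 in 2, Slc16a9 and Slc25a33 in 3, and Slc2a3 and Slc41a3 in all 4. In none of the 60 did treated and untreated arrays overlap, and 19 reached a 2-fold change. Calls were picked for a difference between these same arrays, so such separation, here and for single members below, is not separate support. The median log2 change of the members was 0.0078, 0.00079, 0.053 and -0.061 in the order wild type 3 and 14 days, knockout 3 and 14 days, beside -0.00093, -0.011, 0.0046 and -0.00037 for all features. Without the array that stood apart the knockout median at 3 days was -0.023, with 116 members below 0, beside -0.00028 for all features; with it 94 were below 0.

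Single arrays moved these counts. The wild-type count at 3 days was 10, 9 and 10 without untreated replicate 1, treated replicate 1 and treated replicate 3. At 14 days it was 9 without each of the 3 untreated replicates, 8 without treated replicate 2 and 10 without treated replicate 3. The knockout count at 3 days was 13, 12 and 13 without untreated replicate 1, untreated replicate 3 and the array that stood apart, and it was 3 when the fit was restricted to the arrays compared, all higher. With arrays centred on their medians in place of quantile normalisation, the split there was 5 higher and 6 lower. At 14 days the knockout count was 16 without untreated replicate 1, and 5 without untreated replicate 2 or treated replicate 2. The calls kept under every setting tried were those on Slc2a3, Slc25a36, Slc15a4, Slc38a2, Slc8a3 and Slc41a3 in wild type at 3 days, and on Slc43a1, Slc2a3, Slc43a3, Slc1a3 and Slc41a3 at 14 days. In knockout they were those on Slc25a36 and Slc38a2 at 3 days and on Slc2a3, Slc16a9, Slc25a33 and Slc41a3 at 14 days; each of the other calls in a single stratum was lost under at least 1 setting.

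Averaged over the 4 genotype and time strata, which reuses the same arrays, 48 members passed, 25 higher and 23 lower, a share of 22.1% against 13.1% of all features (5.82% higher and 7.31% lower). Of these, 38 had the same sign of change in all 4 strata, 18 upward and 20 downward. Among all members, called or not, 59 had the same sign in all 4. The 48 were picked for their average over these same strata, so a shared sign among them is not separate support. Of the 48, 14 were past the threshold in no single stratum. Without the array that stood apart the count of members past the threshold on average was 49. By substrate class, carriers of amino acids and peptides held the most calls: 10 of the 34 measured (57 annotated) rose and 3 fell. Metal carriers had 1 higher and 3 lower of 21, carriers of inorganic ions and pH 1 higher and 3 lower of 27, sugar carriers 1 higher and 2 lower of 15. The median average change was near 0 in the amino acid class (-0.0044) as in the sugar class (-0.0082), and -0.11 in the metal class; most members of each class were not called. Whether a lower level reflects fewer cells of a type or less RNA per cell cannot be told apart in bulk muscle.

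**Figure D1:**
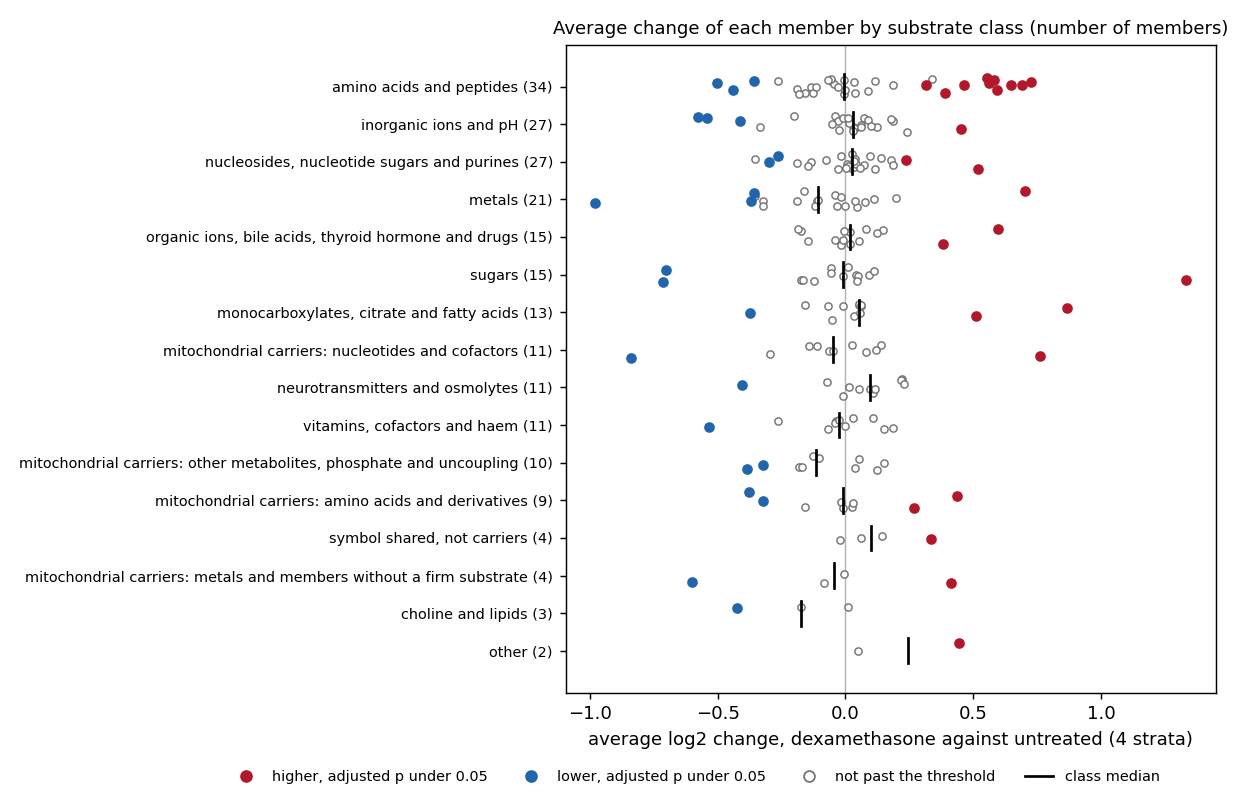
Average log2 change under dexamethasone (horizontal axis) of each of the 217 members, in rows by substrate class; filled points passed an adjusted p of 0.05 and the black bar is the class median. Most points sit near 0, with Slc2a3 (1.33) at the upper end and Slc41a3 (-0.98) at the lower end.

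Among sugar carriers, Slc2a3, the high-affinity facilitative glucose transporter best known from neurons and blood cells, rose in all 4 strata by almost the same amount. In wild type at 3 days the untreated arrays read 5.48, 5.63 and 5.55 and the treated arrays 7.02, 6.52 and 6.92. In wild type at 14 days they read 5.01, 5.59 and 5.24 untreated and 6.16, 6.68 and 7.06 treated. The groups did not overlap at either time, and the rise was 1.27 ± 0.25, adjusted p = 0.00263 and 1.35 ± 0.25, adjusted p = 0.00181 (log2 change ± SE). Knockout muscle read 5.23, 5.51 and 4.69 untreated and 6.14, 6.32 and 6.97 treated at 3 days. At 14 days knockout read 5.03, 5.39 and 5.43 untreated and 6.89, 6.84 and 6.25 treated. The knockout rises were 1.33 ± 0.25, adjusted p = 0.0016 and 1.38 ± 0.25, adjusted p = 0.0015, so the average change of 1.33 corresponds to 2.52-fold. The test of a genotype difference in the response gave 0.06 ± 0.35 at 3 days and 0.02 ± 0.35 at 14 days, neither past the threshold. Without the array that stood apart the knockout rise at 3 days was 1.08, adjusted p = 0.0138, and in the fit restricted to the arrays compared that call was lost (adjusted p = 0.0646).

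Slc2a1, the basal glucose transporter of many cells, did not pass in any stratum, with changes of -0.29, 0.15, 0.17 and -0.52. Slc37a4, which carries glucose-6-phosphate into the endoplasmic reticulum, fell on average with a change of -0.71 ± 0.11, adjusted p = 4.70e-05. Its single-stratum call was in knockout at 3 days, from 6.79, 6.33 and 6.46 untreated to 5.19, 5.79 and 5.68 treated, a change of -0.97 ± 0.22, adjusted p = 0.00835. The groups did not overlap, but the call was lost without untreated replicate 1 (0.0522), where the number in parentheses is the adjusted p without that array, as for the other members that follow. Leaving out the array that stood apart gave -1.04, adjusted p = 0.0145. The other 3 strata gave -0.63, -0.78 and -0.48, none past it.

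Slc45a4, a member of the proton-coupled sugar carrier family, fell at 3 days in both genotypes. In wild type the arrays read 8.57, 8.57 and 7.91 untreated and 7.20, 7.51 and 7.15 treated, a change of -1.06 ± 0.24, adjusted p = 0.0104. Knockout read 8.05, 7.73 and 8.50 untreated and 7.49, 7.52 and 6.42 treated, with replicate 3 the lowest of the treated arrays, a change of -0.95 ± 0.24, adjusted p = 0.0204. Without that array the knockout change was -0.58, adjusted p = 0.173, and it also missed the threshold without untreated replicate 1 (0.0503) or untreated replicate 3 (0.155). The wild-type call was lost without untreated replicate 1 (0.0673), untreated replicate 2 (0.0701), treated replicate 1 (0.0521) or treated replicate 3 (0.06). A second kept probe of Slc45a4 gave -0.44 in wild type and -0.47 in knockout, with adjusted p values over all kept probes of 0.411 and 0.233.

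**Figure D2:**
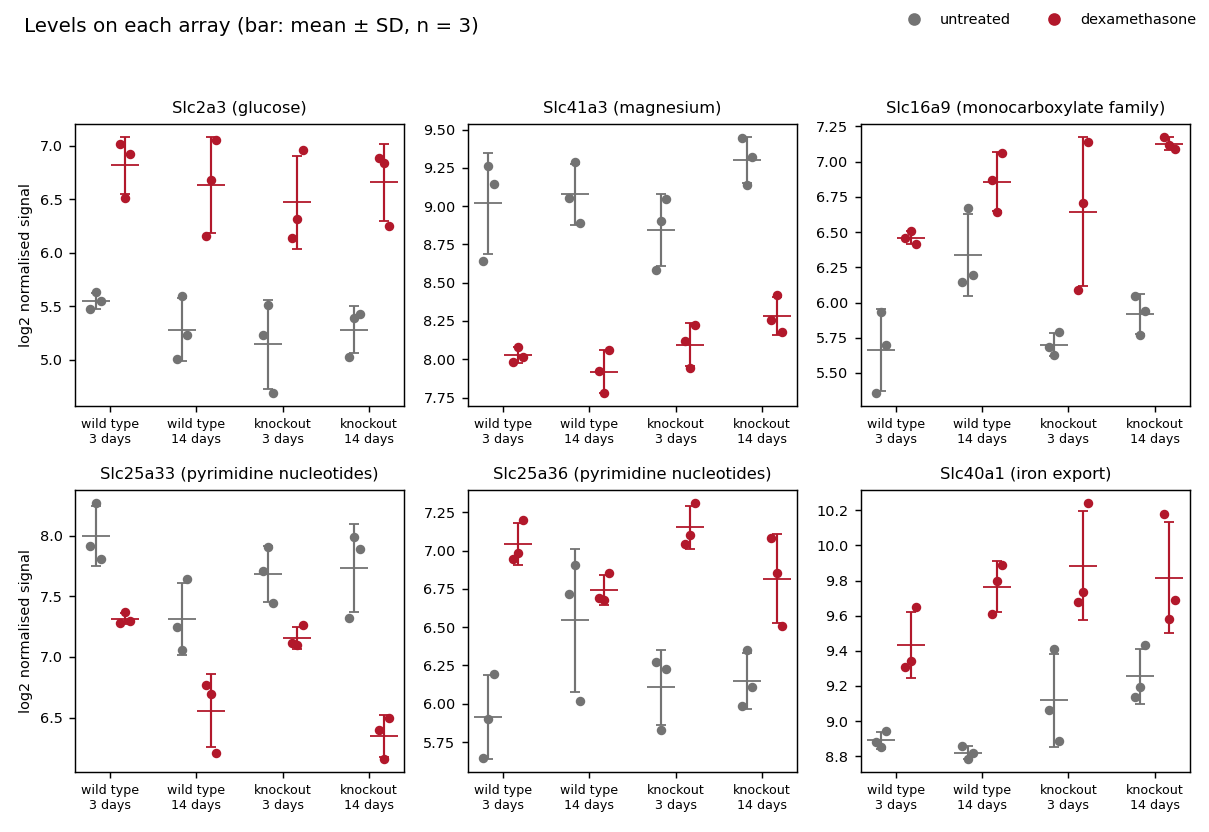
Log2 normalised signal (vertical axis, own scale per gene) of 6 carriers on each array, untreated in grey and treated in red, for both genotypes and times; bars give mean ± SD of 3 arrays. Slc2a3 and Slc41a3 separate treated from untreated arrays in all 4 strata, while Slc25a36 overlaps in wild type at 14 days.

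The Slc38 family, whose carriers move small neutral amino acids and glutamine with sodium, had 9 members measured. Of these, 2 rose past the threshold in wild type at 3 days and 0 at 14 days. In knockout 3 rose at 3 days and 1 at 14 days, 4 rose on average, and none fell past the threshold. In that order these were 22.2%, 0%, 33.3%, 11.1% and 44.4% of the 9. Of all features 1.95%, 1.23%, 2.85%, 1.11% and 5.82% were called higher. This family was set apart with its calls known, and such shares were not computed for most other families. The shares are therefore not separate support. Slc38a2 (SNAT2), a system A carrier for alanine and glutamine, read 8.32, 8.57 and 8.56 untreated and 9.72, 9.38 and 9.26 treated in wild type. In knockout it read 8.81, 8.65 and 8.52 untreated and 9.49, 9.52 and 9.74 treated. The rises were 0.97 ± 0.16, adjusted p = 0.00034 in wild type and 0.92 ± 0.16, adjusted p = 0.000565 in knockout, and both calls were kept under every setting tried. The knockout rise was 0.85, adjusted p = 0.00457 without the array that stood apart. At 14 days the changes were 0.48 and 0.22, with adjusted p of 0.109 and 0.584. The difference between the times was -0.49 in wild type (adjusted p = 0.606) and -0.70 in knockout (adjusted p = 0.171), so a loss of the response with time was not shown.

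Slc38a3 (SNAT3), a glutamine carrier of system N, rose at 3 days too. Knockout at 3 days went from 5.83, 6.23 and 6.48 untreated to 7.12, 6.96 and 7.37 treated, a rise of 0.97 ± 0.21, adjusted p = 0.00584. Wild type at 3 days went from 5.96, 6.16 and 6.19 to 6.67, 6.96 and 6.87, a rise of 0.74 ± 0.21, adjusted p = 0.0481. The groups were separate in both genotypes, but the wild-type call was lost without any 1 of the 6 arrays compared, namely untreated replicate 1 (0.194), untreated replicate 2 (0.111), untreated replicate 3 (0.0922), treated replicate 1 (0.073), treated replicate 2 (0.186) or treated replicate 3 (0.154). At 14 days the values were 0.60 in wild type and 0.07 in knockout, neither past the threshold. Leaving out the array that stood apart gave 0.86, adjusted p = 0.0355 in knockout at 3 days. That knockout call was lost in the fit restricted to the arrays compared (adjusted p = 0.0737).

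Slc38a4 (SNAT4), another carrier of neutral amino acids in this family, rose in knockout at 3 days. The untreated arrays read 7.38, 7.01 and 6.71 and the treated arrays 7.92, 8.22 and 8.62, a rise of 1.22 ± 0.23, adjusted p = 0.00157, and 1.04, adjusted p = 0.0129 without the array that stood apart. The 3 other strata were 0.71, 0.24 and 0.73, positive but not past the threshold. Its other kept probe, detected on 4 arrays, gave -0.19 in knockout at 3 days (adjusted p = 0.631), and with the mean of both probes the call was lost. Slc38a10 rose in knockout at 14 days, from 5.07, 4.63 and 5.12 to 5.62, 5.98 and 5.48, by 0.75 ± 0.15, adjusted p = 0.00478. That call was lost without untreated replicate 2 (0.0534) or treated replicate 2 (0.0508). Slc38a1, another system A carrier, was detected on 8 arrays and changed by -0.05 on average (adjusted p = 0.795).

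In the Slc1 family, sodium-coupled carriers of acidic and neutral amino acids, Slc1a3, Slc1a5 and Slc1a1 rose on average and Slc1a4 fell. The average call on Slc1a5 was lost under median centring (adjusted p = 0.0759). Slc1a3 (GLAST), a glutamate carrier, read 5.70, 5.60 and 5.79 untreated and 6.83, 6.95 and 6.50 treated in wild type at 14 days, a rise of 1.06 ± 0.18, adjusted p = 0.000756. In knockout at 14 days it read 5.97, 6.30 and 6.05 untreated and 6.07, 5.73 and 6.57 treated. The knockout groups overlapped fully and the change was 0.02 ± 0.18. The genotype difference in the response was -1.04 ± 0.25 (adjusted p = 0.446 over all features by limma), so it did not pass. At 3 days Slc1a3 rose in wild type by 0.66 ± 0.18, adjusted p = 0.038, a call lost without untreated replicate 1 (0.158), untreated replicate 2 (0.0847), untreated replicate 3 (0.0842), treated replicate 1 (0.114) or treated replicate 3 (0.24), and knockout gave 0.51 (adjusted p = 0.102).

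Slc1a5 (ASCT2), the glutamine exchanger, rose in wild type at 14 days. Untreated arrays read 6.44, 6.84 and 7.45 and treated arrays 8.43, 7.76 and 7.95, a rise of 1.14 ± 0.30, adjusted p = 0.0362. The call was lost without untreated replicate 1 (0.221), untreated replicate 2 (0.11), treated replicate 1 (0.165), treated replicate 2 (0.0572) or treated replicate 3 (0.0758). Knockout at 14 days gave 0.14, with treated arrays at 6.86, 6.75 and 7.99, and the genotype difference of -1.0 ± 0.42 had an adjusted p of 1. The 3 other kept probes of Slc1a5 gave 0.30, 0.23 and 0.72 in wild type at 14 days, none past the threshold. Slc1a1, the neuronal-type glutamate and cysteine carrier, was between 0.45 and 0.64 in the 4 strata and passed on average (0.55 ± 0.11, adjusted p = 0.00101). Slc1a4 (ASCT1), which exchanges alanine, serine and cysteine, fell on average (adjusted p = 0.0152) and passed in no single stratum. It was detected on no treated array of wild type at either time or of knockout at 3 days, so its level there was not well above background and the size of its fall is not given.

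Promoter windows were read for the members past the threshold on average (RefSeq, GRCm38.p6, 250 bases before to 50 after an annotated start). A window was found for 18 of the 25 members that rose and 19 of the 23 that fell. The glucocorticoid receptor's recognition hexamer AGAACA, on either strand, lay in 3 of the 18 (16.7%) and 1 of the 19 (5.26%), against 15% of 133 other members and 21.3% of 27025 genes with a window. The looser palindrome ACANNNTGT lay in 5.56%, 0%, 6.77% and 7.90% in the same order, and the amino acid response element TGATGNAA in 0%, 5.26%, 3.76% and 4.51%. The E-box CACGTG lay in 16.7% and 15.8% of the members that rose and fell, 13.5% of the others and 8.09% of all genes. The 3 hexamers among members that rose and the amino acid response match of Slc1a4 are shown in capitals; in Slc10a6 the palindrome overlaps the hexamer. A match describes these letters and is not a site of binding.
Slc38a4 promoter, chr15:97020310-97020609, minus strand: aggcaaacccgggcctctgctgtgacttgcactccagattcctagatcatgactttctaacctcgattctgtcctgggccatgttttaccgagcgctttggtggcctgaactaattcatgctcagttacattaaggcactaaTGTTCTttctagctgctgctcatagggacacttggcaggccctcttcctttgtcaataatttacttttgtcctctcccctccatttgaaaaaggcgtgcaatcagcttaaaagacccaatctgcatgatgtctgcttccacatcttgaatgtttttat
Slc1a3 promoter, chr15:8710758-8711057, minus strand: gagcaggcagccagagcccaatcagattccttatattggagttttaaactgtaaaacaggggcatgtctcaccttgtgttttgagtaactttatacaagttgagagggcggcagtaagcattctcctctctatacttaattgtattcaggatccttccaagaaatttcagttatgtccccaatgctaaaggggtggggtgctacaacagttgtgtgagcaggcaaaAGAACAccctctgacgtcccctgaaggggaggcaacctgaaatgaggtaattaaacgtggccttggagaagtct
Slc10a6 promoter, chr5:103629354-103629653, minus strand: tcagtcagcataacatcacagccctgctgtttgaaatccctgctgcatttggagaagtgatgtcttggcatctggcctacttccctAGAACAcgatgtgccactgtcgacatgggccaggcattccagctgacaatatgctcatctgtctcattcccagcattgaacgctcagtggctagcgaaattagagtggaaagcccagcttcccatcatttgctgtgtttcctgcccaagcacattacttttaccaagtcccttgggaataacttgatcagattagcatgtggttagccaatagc
Slc1a4 promoter, chr11:20332664-20332963, minus strand: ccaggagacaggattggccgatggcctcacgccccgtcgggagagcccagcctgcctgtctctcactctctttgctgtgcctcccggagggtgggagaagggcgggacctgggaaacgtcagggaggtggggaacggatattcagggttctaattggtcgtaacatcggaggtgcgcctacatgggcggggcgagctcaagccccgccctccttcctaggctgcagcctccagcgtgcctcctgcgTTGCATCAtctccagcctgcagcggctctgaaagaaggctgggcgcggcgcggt
The matches begin at -108 in Slc38a4, -24 in Slc1a3, -164 in Slc10a6 and -4 in Slc1a4 relative to the annotated start. Slc38a4 has 3 windows, of which the one shown holds the match.

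Slc43a1 (LAT3), a facilitative carrier of leucine and other branched-chain amino acids, rose at 14 days. In wild type the untreated arrays read 7.08, 7.52 and 7.15 and the treated arrays 8.65, 9.22 and 9.02, a rise of 1.72 ± 0.34, adjusted p = 0.00335, or 3.29-fold. Knockout at 14 days read 7.67, 6.47 and 6.61 untreated and 8.41, 8.19 and 7.48 treated, with the highest untreated array above the lowest treated one, a change of 1.11 ± 0.34, adjusted p = 0.0746. At 3 days the changes were 0.20 and -0.27, and the treated knockout arrays ranged from 5.50 on the array that stood apart to 7.16. The difference between times in wild type was 1.51 ± 0.47 (adjusted p = 0.341 by limma), short of the threshold. The other kept probe of Slc43a1 gave 1.58 in wild type at 14 days, past the threshold (adjusted p = 0.00144).

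Slc15a4, which exports histidine and small peptides from lysosomes, rose in wild type at 3 days from 5.07, 4.83 and 4.95 to 5.98, 5.78 and 6.05, by 0.99 ± 0.19, adjusted p = 0.00255. In knockout at 3 days it rose from 4.77, 4.98 and 5.14 to 5.85, 5.71 and 5.52, by 0.73 ± 0.19, adjusted p = 0.0249, a call lost without untreated replicate 1 (0.105), untreated replicate 2 (0.0595), treated replicate 1 (0.0642) or treated replicate 2 (0.0587), and by 0.82, adjusted p = 0.0299 without the array that stood apart. The treated and untreated arrays were separate in both, while at 14 days the changes were 0.30 and -0.17 with overlapping arrays. Slc66a1, the lysosomal exporter of cationic amino acids, fell in knockout at 14 days from 5.28, 5.64 and 5.17 to 4.68, 4.55 and 4.57 (adjusted p = 0.0131); no treated array of that group detected it, so the fall was at least 1.54-fold. That call was lost without untreated replicate 2 (0.114) or treated replicate 2 (0.0599).

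Of the amino acid carriers that fell, Slc6a9 (GlyT1), the glycine carrier, did so at 14 days on its probe of higher signal. Wild type went from 6.48, 6.54 and 6.81 to 6.08, 5.24 and 6.0, a change of -0.84 ± 0.20, adjusted p = 0.0206. Knockout went from 6.79, 7.08 and 7.33 to 6.31, 6.30 and 6.38, a change of -0.74 ± 0.20, adjusted p = 0.0434. Neither pair overlapped, but the wild-type call was lost without untreated replicate 3 (0.109) or treated replicate 2 (0.202), and the knockout call without untreated replicate 2 (0.14), untreated replicate 3 (0.236), treated replicate 1 (0.126), treated replicate 2 (0.137) or treated replicate 3 (0.0852). The other kept probe of Slc6a9, detected on 5 arrays, gave 0.42 in wild type (adjusted p = 0.106), -0.064 in knockout (0.897) and 0.10 on average (0.418). With the mean of both probes both calls were lost (adjusted p of 0.56 and 0.0983). Slc16a10 (TAT1), the carrier of aromatic amino acids and thyroid hormone, fell in wild type at 3 days from 7.26, 7.19 and 7.41 to 6.25, 6.23 and 6.55, a change of -0.94 ± 0.17, adjusted p = 0.00131. The 2 other kept probes of Slc16a10 gave -0.092 and 0.14 there (adjusted p of 0.955 and 0.870). Slc7a5 (LAT1), the leucine exchanger of proliferating cells, changed by -0.07 on average (adjusted p = 0.764). Slc7a10 (Asc-1), a carrier of small neutral amino acids found in fat cells, passed on average, higher with dexamethasone (adjusted p = 0.0265), and in no single stratum. It was detected on 11 arrays and on no untreated knockout array, so no size is given.

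**Figure D3:**
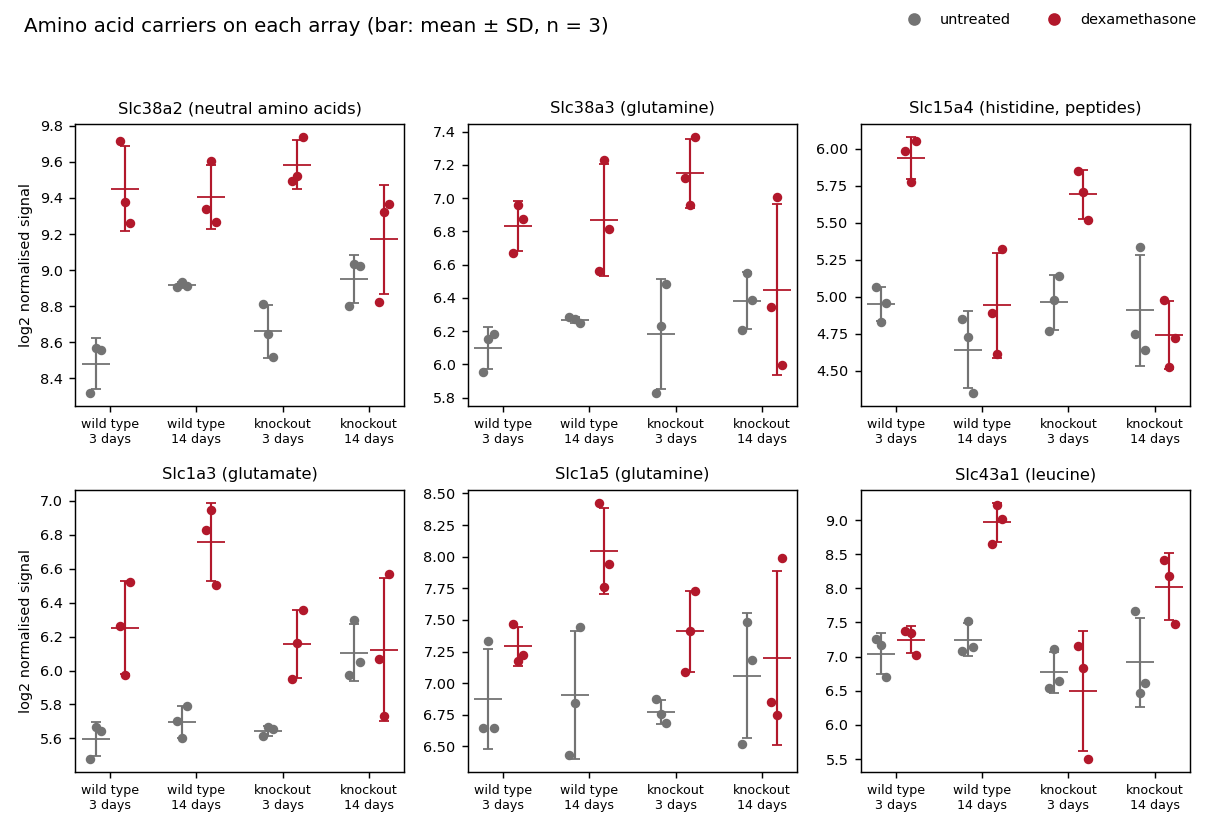
Log2 normalised signal (vertical axis, own scale per gene) of 6 amino acid carriers on each array, untreated in grey and treated in red; bars give mean ± SD of 3 arrays. Slc38a2, Slc38a3 and Slc15a4 separate at 3 days in both genotypes, whereas Slc1a3, Slc1a5 and Slc43a1 separate in wild type at 14 days.

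Among carriers of monocarboxylates and fatty acids, Slc16a9, a member of the monocarboxylate carrier family, rose in 3 strata. Knockout at 14 days read 6.05, 5.77 and 5.94 untreated and 7.18, 7.12 and 7.09 treated, a rise of 1.21 ± 0.20, adjusted p = 0.000582. Knockout at 3 days read 5.68, 5.63 and 5.79 and 6.09, 6.71 and 7.14, with the array that stood apart the highest, a rise of 0.94 ± 0.20, adjusted p = 0.0047 and of 0.70, adjusted p = 0.0434 without it. Wild type at 3 days read 5.36, 5.93 and 5.70 and 6.45, 6.51 and 6.42, a rise of 0.80 ± 0.20, adjusted p = 0.0204. The wild-type call was lost without untreated replicate 1 (0.148), untreated replicate 3 (0.0562), treated replicate 1 (0.0683), treated replicate 2 (0.0807) or treated replicate 3 (0.0604). The knockout call at 3 days was lost under median centring and in the fit restricted to the arrays compared, with adjusted p up to 0.143. Wild type at 14 days overlapped, at 0.52 (adjusted p = 0.218).

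Slc27a1 (FATP1), the fatty acid transport protein of muscle and fat, rose in wild type at 14 days. The arrays read 8.32, 8.47 and 8.51 untreated and 9.29, 9.36 and 9.45 treated, a rise of 0.93 ± 0.20, adjusted p = 0.00932. The call was lost without untreated replicate 1 (0.0512) and under median centring (adjusted p = 0.339). Knockout at 14 days read 8.15, 8.13 and 7.79 and 8.56, 8.24 and 9.03, a change of 0.59 ± 0.20, adjusted p = 0.135. Slc27a1 also read lower in knockout than in wild type in all 4 matched comparisons, with differences of -0.72 and -0.41 untreated and -0.72 and -0.76 treated at 3 and 14 days, with adjusted p from 0.101 to 0.492. Slc27a3, a relative with acyl-CoA synthetase activity, fell in wild type at 14 days with a change of -0.65 ± 0.18, adjusted p = 0.0479, a call lost without untreated replicate 2 (0.129), untreated replicate 3 (0.216), treated replicate 1 (0.0844), treated replicate 2 (0.237) or treated replicate 3 (0.0821). Fat cell markers moved in the same stratum: 2 of 7 measured (of 10 listed), Lep (2.13, adjusted p = 0.0124) and Cidec (1.84, adjusted p = 0.000699), rose in wild type at 14 days and none in the other 3 strata. The summed log2 level of that list was 12.61 to 12.91 in untreated and 12.85 to 13.11 in treated wild type at 14 days. Its part in the changes of Slc27a1, Slc7a10 and the other members called there was not tested.

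Among metal carriers, Slc41a3, a magnesium carrier, fell in all 4 strata. In wild type it went from 8.64, 9.27 and 9.15 to 7.98, 8.08 and 8.01 at 3 days. At 14 days wild type went from 9.05, 9.29 and 8.89 to 7.92, 7.78 and 8.06. The changes were -0.99 ± 0.16, adjusted p = 0.00038 and -1.16 ± 0.16, adjusted p = 6.67e-05. Knockout went from 8.58, 8.90 and 9.05 to 8.12, 7.94 and 8.22 at 3 days and from 9.44, 9.14 and 9.32 to 8.26, 8.42 and 8.18 at 14 days. These changes were -0.75 ± 0.16, adjusted p = 0.00569 and -1.02 ± 0.16, adjusted p = 0.000379, again with no overlap. The knockout change at 3 days was -0.81, adjusted p = 0.00941 without the array that stood apart, and the call was lost under median centring (adjusted p = 0.0981) and in the fit restricted to the arrays compared (0.103). The genotype differences in the response were 0.25 ± 0.23 and 0.14 ± 0.23, neither past the threshold (adjusted p of 0.997 and 1).

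Slc40a1 (ferroportin), the cellular iron exporter, rose. Wild type at 14 days read 8.86, 8.79 and 8.82 untreated and 9.61, 9.80 and 9.89 treated, a rise of 0.94 ± 0.17, adjusted p = 0.0017. Knockout at 3 days read 9.06, 9.41 and 8.88 and 9.68, 9.73 and 10.24, a rise of 0.77 ± 0.17, adjusted p = 0.00801. The treated arrays lay above the untreated ones in both. The knockout call was lost without untreated replicate 3 (0.064) or treated replicate 3 (0.0698), the latter being the array that stood apart. Under median centring the wild-type call was lost (adjusted p = 0.165). The knockout call was lost there and in the fit restricted to the arrays compared, with adjusted p up to 0.162. The remaining strata gave 0.54 (adjusted p = 0.0891) and 0.56 (adjusted p = 0.0799), and the average was 0.70 ± 0.09, adjusted p = 1.93e-06. Slc40a1 is also known from macrophages. Of their markers, 2, 3, 2 and 3 of 7 measured (of 12 listed) fell in the 4 strata and none rose, with a summed log2 level of 9.99 to 11.08 in untreated and 9.78 to 10.35 in treated arrays over all strata. Their part in the change of Slc40a1 was not tested.

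The mitochondrial iron importers, both members of Slc25, moved in opposite directions. Slc25a37 (mitoferrin 1), the form of red cell precursors, fell in knockout at 3 days from 5.68, 5.65 and 5.42 to 4.85, 4.61 and 5.0, a change of -0.76 ± 0.17, adjusted p = 0.00864, and of -0.85, adjusted p = 0.0103 without the array that stood apart. In wild type at 14 days it fell from 5.52, 6.07 and 5.26 to 4.70, 4.90 and 4.83, a change of -0.81 ± 0.17, adjusted p = 0.00776, a call lost without untreated replicate 2 (0.0765). A second kept probe gave -0.21 and -0.38 in these strata, neither past the threshold, and -0.28 on average (adjusted p = 0.0144). In the fit restricted to the arrays compared both single-stratum calls on Slc25a37 were lost, with adjusted p up to 0.0872. Slc25a28 (mitoferrin 2), the widely expressed form, rose on average by 0.41 ± 0.08, adjusted p = 0.000557 and in knockout at 3 days by 0.53 ± 0.16, adjusted p = 0.0492, the latter lost without untreated replicate 1 (0.0971), untreated replicate 2 (0.102), untreated replicate 3 (0.139) or treated replicate 3 (0.277). Red blood cell genes moved at 3 days: 5 of 6 measured (of 12 listed) fell in wild type and 4 of 6 in knockout, while at 14 days 1 and 0 did. Their summed log2 level was 15.16 to 15.87 in untreated and 13.02 to 13.68 in treated arrays at 3 days, and 15.57 to 16.08 and 15.61 to 16.03 at 14 days. Its part in the change of Slc25a37, which fell at 14 days in wild type too, was not tested.

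Of the 14 zinc carriers measured (Slc30 and Slc39), 2 passed on average, both lower, a share of 14.3% beside 13.1% of all features. Slc30a1 (ZnT1), the plasma membrane zinc exporter, went from 7.66, 7.82 and 8.34 to 7.23, 7.23 and 6.58 in knockout at 3 days. The change was -0.92 ± 0.20, adjusted p = 0.00548, -0.71, adjusted p = 0.0494 without the array that stood apart, and lost without untreated replicate 3 (0.0571). A second kept probe of Slc30a1, detected on 8 arrays, gave -0.38 there (adjusted p = 0.228) and -0.15 on average (0.339). Slc39a1 (ZIP1), a zinc importer, fell on average with a change of -0.37 ± 0.09, adjusted p = 0.00361 and passed in no single stratum. The metallothioneins Mt1 and Mt2, zinc-binding proteins without an Slc symbol, rose in all 4 strata, by 2.34 and 1.39 on average. They belong to a list of 52 partners of transport, of which 33 were measured. On average 8 of these rose and 5 fell past the threshold, where 5.82% of all features rose and 7.31% fell. The same list held Glul, glutamine synthetase, which rose in wild type at 14 days by 2.10 ± 0.32, adjusted p = 0.000171, and Gamt, the enzyme of creatine synthesis, which fell in all 4 strata, with an average change of -2.05. Tfrc, the transferrin receptor of iron uptake, fell on average with a change of -0.92 ± 0.10, adjusted p = 3.94e-07.

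Mitochondrial nucleotide carriers split. Slc25a33 and Slc25a36 both carry pyrimidine nucleotides, and they moved in opposite directions. Slc25a33 fell in knockout at 14 days from 7.32, 7.99 and 7.89 to 6.40, 6.16 and 6.49, a change of -1.38 ± 0.19, adjusted p = 6.63e-05. In wild type it fell from 7.25, 7.06 and 7.64 to 6.77, 6.70 and 6.21 at 14 days, a change of -0.76 ± 0.19, adjusted p = 0.0269. At 3 days wild type fell from 7.91, 8.27 and 7.81 to 7.28, 7.37 and 7.29, a change of -0.68 ± 0.19, adjusted p = 0.0433. The arrays were separate each time; the knockout call at 14 days was kept under every setting, the wild-type call at 14 days was lost without untreated replicate 1 (0.0625), untreated replicate 3 (0.176), treated replicate 2 (0.0539) or treated replicate 3 (0.169), and that at 3 days without untreated replicate 1 (0.0865), untreated replicate 2 (0.239), treated replicate 1 (0.136), treated replicate 2 (0.1) or treated replicate 3 (0.137).

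Slc25a36 rose at 3 days in both genotypes. Wild type read 5.65, 5.90 and 6.19 untreated and 6.94, 6.99 and 7.20 treated. Knockout read 6.27, 5.83 and 6.22 untreated and 7.04, 7.10 and 7.31 treated. The rises were 1.13 ± 0.20, adjusted p = 0.00085 and 1.05 ± 0.20, adjusted p = 0.00183, and both calls were kept under every setting; without the array that stood apart the knockout rise was 0.97, adjusted p = 0.0113. For Slc25a36 another probe gave 0.79 in wild type (adjusted p = 0.0357) and 0.44 in knockout (adjusted p = 0.250). At 14 days the changes were 0.20 and 0.67, neither past the threshold.

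Other mitochondrial carriers passed on average in both directions. Slc25a22, a glutamate carrier, and Slc25a38, which brings glycine in for haem synthesis, rose on average (0.44 and 0.27, adjusted p of 0.00976 and 0.039). Slc25a15, the ornithine carrier of the urea cycle, and Slc25a39, which imports glutathione, fell (-0.38 and -0.32, adjusted p of 0.00201 and 0.00161). Slc25a11, the oxoglutarate and malate carrier, and Slc25a47 fell too (-0.32 and -0.39, adjusted p of 0.00032 and 0.000774). Under median centring the average calls on Slc25a22, Slc25a39 and Slc25a11 were lost (adjusted p of 0.0862, 0.159 and 0.0885). Slc25a15 and Slc25a47 were called in wild type at 14 days (-0.60 and -0.61, adjusted p of 0.0436 and 0.0259), and both calls were lost without any 1 of the 6 arrays compared, with adjusted p up to 0.149 and 0.109. Another kept probe of Slc25a15 gave 0.093 there. Slc25a35 fell in knockout at 14 days (-0.66, adjusted p = 0.0317), a call lost without untreated replicate 1 (0.0565), untreated replicate 2 (0.0933), untreated replicate 3 (0.102), treated replicate 2 (0.135) or treated replicate 3 (0.148). The abundant phosphate carrier Slc25a3 and the adenine nucleotide carrier Slc25a4 passed in no stratum, at 0.05 and -0.11 on average.

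**Figure D4:**
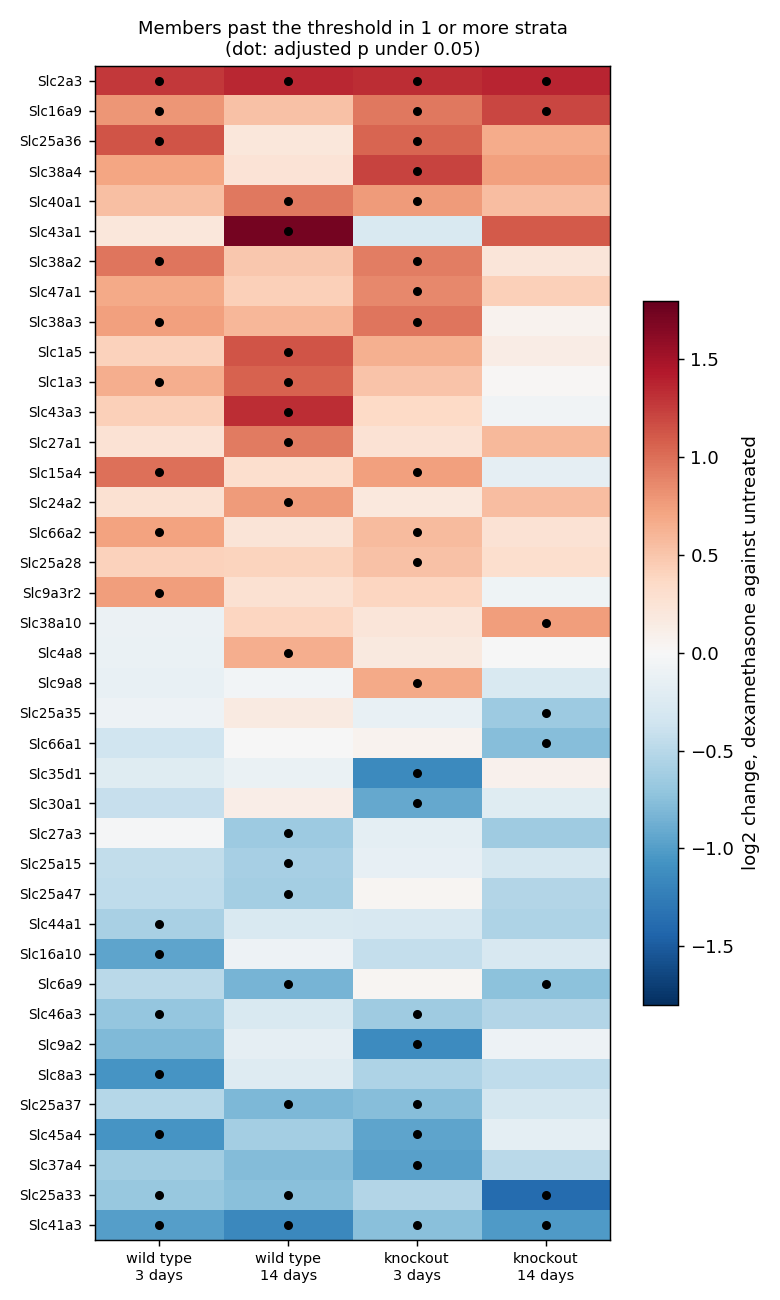
Log2 change under dexamethasone (colour) of the 39 members past the threshold in at least 1 stratum, ordered by average change; columns are genotype and time, and a dot marks an adjusted p under 0.05. Slc2a3 and Slc41a3 carry a dot in all 4 columns, and 24 members carry a single dot.

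Among the 27 carriers of inorganic ions and pH 1 rose and 3 fell on average, a share of 14.8%, close to the 13.1% of all features. Slc8a3 (NCX3), a sodium/calcium exchanger of muscle and nerve, fell in wild type at 3 days from 5.81, 5.75 and 5.72 to 4.58, 5.02 and 4.52, a change of -1.05 ± 0.22, adjusted p = 0.00457, and the call was kept under every setting. In knockout at 3 days it changed by -0.56 (adjusted p = 0.147), and a second probe detected on 4 arrays gave -0.42 in wild type (adjusted p = 0.101). Slc9a2 (NHE2), a sodium/proton exchanger, fell in knockout at 3 days from 8.48, 8.16 and 8.88 to 7.84, 7.82 and 6.48, a change of -1.13 ± 0.30, adjusted p = 0.025. The lowest value came from the array that stood apart, without which the change was -0.68, adjusted p = 0.2; the call was also lost without untreated replicate 1 (0.0607) or 3 (0.155), and 2 other kept probes gave 0.27 and -0.31. Slc26a6, an anion exchanger, fell on average (-0.41 ± 0.12, adjusted p = 0.0274), a call lost under 8 of 33 refits. Another kept probe of Slc26a6 gave -0.027 on average (adjusted p = 0.932). Slc24a2, a potassium-dependent sodium/calcium exchanger, and Slc4a8, a sodium-driven bicarbonate exchanger, rose in wild type at 14 days (0.77 ± 0.19, adjusted p = 0.0269, and 0.66 ± 0.17, adjusted p = 0.0366). Both calls were lost without any 1 of the 6 arrays, with adjusted p up to 0.153 and 0.134. The other kept probe of Slc4a8, detected on 5 arrays, gave 0.080 there (adjusted p = 0.949), and with the mean of its probes the call was lost (0.254). Slc9a8, a Golgi sodium/proton exchanger, rose in knockout at 3 days (0.68 ± 0.19, adjusted p = 0.0385) and was lost without untreated replicate 1 (0.0828), untreated replicate 3 (0.252), treated replicate 1 (0.0557) or treated replicate 3 (0.189). Its other kept probes gave -0.15 and 0.18 (adjusted p of 0.763 and 0.592), and with the mean of its probes the call was lost (0.382).

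Among nucleoside, nucleobase and nucleotide sugar carriers, Slc43a3, which takes up purine nucleobases, rose in wild type at 14 days from 6.71, 7.33 and 7.05 to 8.38, 8.30 and 8.40, by 1.33 ± 0.18, adjusted p = 4.24e-05, or 2.52-fold. That call was kept under every setting. Slc35d1, which brings nucleotide sugars into the endoplasmic reticulum, fell in knockout at 3 days from 7.25, 7.31 and 7.97 to 6.65, 6.65 and 5.78, a change of -1.15 ± 0.24, adjusted p = 0.00431. The array that stood apart was the lowest, and without it the change was -0.86, adjusted p = 0.0383. A second probe of Slc35d1, detected on 7 arrays, gave -0.058. Slc28a1, a concentrative nucleoside carrier, rose on average (adjusted p = 0.0314), with no array above background in 4 of the 8 groups, while Slc29a3, a lysosomal nucleoside carrier, and Slc35b2, the sulphate donor carrier of the Golgi, fell (-0.30 and -0.27, adjusted p of 0.0202 and 0.0114). The average call on Slc35b2 was lost under median centring (adjusted p = 0.166). Slc29a1, the main equilibrative nucleoside carrier, was at -0.07 (adjusted p = 0.67).

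The remaining classes held few calls. Slc47a1 (MATE1), an exporter of organic cations and drugs, rose in knockout at 3 days from 7.22, 7.06 and 6.76 to 7.67, 7.77 and 8.19, by 0.86 ± 0.20, adjusted p = 0.0114. The call was lost without untreated replicate 3 (0.0845) or treated replicate 3 (0.0796), the latter being the array that stood apart. On average Slc47a1 rose by 0.60 ± 0.10, adjusted p = 0.000168 and Slc10a6, a carrier of sulphated steroids, by 0.38 ± 0.13, adjusted p = 0.0476. A second kept probe of Slc47a1, detected on 24 arrays, gave 0.64 in knockout at 3 days (adjusted p = 0.112) and 0.31 on average (0.0847). Slc10a6 changed by 0.73 and 0.75 in wild type and by 0.11 and -0.07 in knockout, none past the threshold. Slc46a3, a lysosomal carrier, fell at 3 days in wild type (-0.70 ± 0.19, adjusted p = 0.0322) and in knockout (-0.65 ± 0.19, adjusted p = 0.0417). Its wild-type call was lost without untreated replicate 1 (0.122), untreated replicate 2 (0.136), treated replicate 1 (0.122) or treated replicate 2 (0.133), and its knockout call without untreated replicate 1 (0.129), untreated replicate 2 (0.0721), untreated replicate 3 (0.0907), treated replicate 1 (0.0888) or treated replicate 2 (0.127). Without the array that stood apart the knockout change was -0.80, adjusted p = 0.0182.

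Slc6a6, the taurine carrier, fell on average with a change of -0.41 ± 0.07, adjusted p = 0.000103, with -0.45, -0.37, -0.35 and -0.45 in the strata. Slc44a1, the choline carrier, fell in wild type at 3 days (-0.58 ± 0.16, adjusted p = 0.0435). That call was lost without any 1 of the 6 arrays, with adjusted p up to 0.183. Other kept probes of Slc44a1 gave -0.47 and -0.47 there (adjusted p of 0.526 and 0.348). Slc44a2, its relative, did not pass on average (-0.18, adjusted p = 0.176). Slc66a2 rose at 3 days from 9.63, 9.73 and 9.61 to 10.38, 10.43 and 10.33 in wild type, by 0.72 ± 0.15, adjusted p = 0.0047, and in knockout by 0.57 ± 0.15, adjusted p = 0.0241, the latter lost without untreated replicate 2 (0.0755), untreated replicate 3 (0.0845) or treated replicate 3 (0.127). The symbol rule also caught 4 genes that are not carriers, of which the scaffold protein Slc9a3r2 rose in wild type at 3 days (0.75 ± 0.16, adjusted p = 0.00531). A second kept probe of Slc9a3r2 gave 0.92 there (adjusted p = 0.00229). Under median centring the wild-type calls at 3 days on Slc66a2 and Slc9a3r2 were lost (adjusted p of 0.106 and 0.0798). Over all 13 comparisons 110 member calls were made on 54 members. Other kept probes were sought only for a limited number of members past the threshold per direction in each comparison. Some members called only on average, such as Slc6a6 and Slc25a39, were not searched. Of the calls on the members searched, 38 had another kept probe. Another probe passed in the same direction in 9 of these 38 and in the opposite direction in none.

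Fibroblast genes fell in every stratum, 7 of 10 each time, with a summed log2 level of 13.13 to 13.68 in untreated and 12.67 to 13.07 in treated arrays. Of 10 endothelial genes, 2 were called lower in wild type at 14 days, where the median change of the list was -0.043. None was called in the other 3 strata, and on average 1 was called higher and 2 lower. None of 6 Schwann cell genes was called. The part of these cell types in the carriers that fell was not tested.

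Few carriers differed past the threshold between knockout and wild type. In untreated muscle of the 3-day arm 1 of 217 members passed, against 0.326% of all features (0.105% higher and 0.221% lower). Slc50a1, a sugar efflux carrier of the Golgi and plasma membrane, read 6.15, 6.26 and 5.83 in wild type and 4.99, 5.14 and 4.88 in knockout, a difference of -1.08 ± 0.21, adjusted p = 0.0124. In the 14-day arm the order was the other way, 5.39, 5.61 and 5.43 in wild type and 6.0, 5.65 and 6.17 in knockout, with a difference of 0.46 (adjusted p = 0.451). The 3-day call was lost without wild-type replicate 1 (0.0845) or 2 (0.112) and without knockout replicate 1 (0.0594) or 3 (0.0989), each of which left 0 members called. No member passed in untreated muscle of the 14-day arm (limma; 19 at an unadjusted p under 0.05; 0.351% of all features passed, 0.141% higher and 0.209% lower), and 1 did without knockout replicate 1.

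Under dexamethasone at 3 days no member passed between the genotypes (limma; 31 at an unadjusted p under 0.05; 0.523% of all features passed, 0.221% higher and 0.301% lower), and 1 did without the array that stood apart. With median centring 21 of 217 members passed there, all lower in knockout. Under that setting 2013 of all 16262 features passed, 0.845% of them higher, and the median of all features was -0.31. At 14 days 1 member passed, against 0.603% of all features (0.264% higher and 0.338% lower). Slc43a3 read 8.38, 8.30 and 8.40 in treated wild type and 7.48, 7.30 and 7.18 in treated knockout, a difference of -1.04 ± 0.18, adjusted p = 0.00322. Untreated knockout at 14 days read 6.91, 7.68 and 7.56, so treated and untreated knockout overlapped (-0.06 ± 0.18). Its response to dexamethasone at 14 days was -1.40 ± 0.25 in knockout relative to wild type (adjusted p = 0.0702). The count between genotypes at 14 days was 4 without treated knockout replicate 3, and the call on Slc43a3 held when any 1 of the arrays compared was left out but not under median centring, which left 0 members.

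For the response itself, the difference between genotypes passed for no member at 3 days (limma; 10 at an unadjusted p under 0.05; 0% of all features passed) or at 14 days (20; 0.0123% of all features). The count at 14 days was 1 without untreated wild-type replicate 2 or untreated knockout replicate 1. Across the 217 members the wild-type and knockout changes, which share no array but were normalised together, correlated with Pearson's r of 0.67 at 3 days and 0.57 at 14 days; 146 and 127 members had the same sign. The 3-day r was 0.64 without the array that stood apart, with 140 of the same sign. Genes are not independent replicates, and these values describe these arrays.

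**Figure D5:**
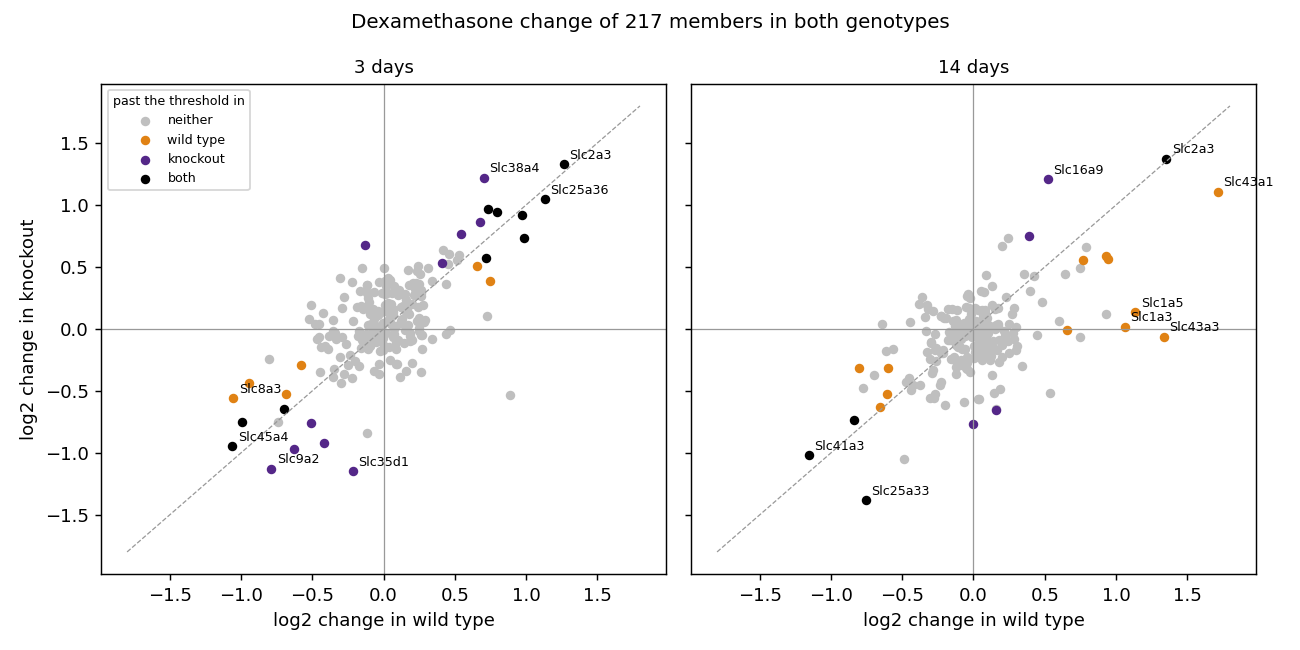
Log2 change under dexamethasone in wild type (horizontal axis) against knockout (vertical axis) for the 217 members at 3 and 14 days; the dashed line marks equal change and colour marks where a member passed an adjusted p of 0.05. Slc2a3 and Slc41a3 lie near the line at both times, and Slc43a3 (1.33 against -0.06) lies farthest below it at 14 days among those called.

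Between 3 and 14 days no member's response differed past the threshold in wild type (limma; 25 at an unadjusted p under 0.05; 0.148% of all features passed, 0.0615% higher and 0.0861% lower) or in knockout (33; 0.129%, 0.0676% higher and 0.0615% lower). In knockout the count was 3 without untreated replicate 1 of the 14-day arm and 1 without treated replicate 1 of the 3-day arm. The members of lowest unadjusted p were Slc43a3 at 0.90 (adjusted p = 0.243) and Slc16a10 at 0.85 (adjusted p = 0.257) in wild type, and Slc35d1 at 1.23 (adjusted p = 0.132) and Slc9a8 at -0.94 (adjusted p = 0.144) in knockout. In knockout the members' median difference was -0.15, with 150 of 217 below 0, beside -0.037 for all features. Without the array that stood apart it was -0.075, with 130 below 0, beside -0.0040 for all features. In wild type the median was -0.013, with 112 below 0.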

How the data were processed

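Per the labels, biotinylated cRNA from Trizol-extracted muscle RNA was hybridised to Illumina bead arrays. The authors' deposited table held intensity values (average signal per probe, not normalised) and a detection p-value per probe and array. A second deposited table held intensity values that were, as its columns show, background-subtracted and quantile-normalised by the authors, with a median of 3.54. In 5 of the 8 groups the replicate order differed between these tables; replicate numbers here follow the column names of the non-normalised table, so which array a number names is uncertain. BeadStudio 3.2.3 is named in the submitters' processing notes, without a role. Of 46632 probes, 29976 had 1 gene symbol, 10 had several and 16646 had none in the platform annotation.

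Signals were background-corrected on detection p-values, quantile-normalised and log2-transformed (neqc, offset 16, limma 3.58.1, R 4.3.3), so low levels change less than their RNA. Of the probes, 20769 passed detection and gave 16262 features. One linear model held the 8 group means (16 residual degrees of freedom), with eBayes and Benjamini-Hochberg adjustment over all features; all adjusted p-values are from limma. Probes were adjusted over all kept probes where another probe of a gene is named. The model was tested on simulated data. The members, substrate classes, marker lists and tests were chosen with earlier results of these data known. Named were Trim63, up to 12 members per direction past the threshold in each comparison, the members of highest signal or largest change in each class, relatives of these, and up to 4 genes per list. Tfrc was named in addition to the 4 of the transport partner list. The number of arrays limits the precision. Array replicate numbers were checked for pairing and did not pair the samples. The alternatives tried were the authors' table, no background correction, median centring, an offset of 50, other detection filters, the mean of a gene's probes, a replicate block, a fit restricted to the groups compared, trend and robust variance, and leaving out each array. Promoter sequences came from RefSeq (GRCm38.p6).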

Additional observations from a re-analysis of the deposited data

How the results depend on the processing

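No change of direction was found for any of the 97 calls examined singly; 43 were kept under every setting run and 54 were lost under at least 1. The counts of members called moved as follows, and the cause was not tested. With the authors' table, dexamethasone-treated knockout against wild type gave 1 at 3 days and 3 at 14 days, and the time comparison 1 in each genotype. Without background correction, knockout at 14 days under dexamethasone gave 14, treated knockout against wild type 1 and 2, and the genotype difference in the response at 14 days 1. Median centring gave 8 and 5 in wild type and 11 and 5 in knockout under dexamethasone, 3 in untreated knockout against wild type at 3 days, and 21 and 0 in treated knockout against wild type. Under it the median of all features was -0.26 in untreated and -0.31 in treated knockout against wild type at 3 days. It also moved the share of called features that were higher from 53.3% to 34.1% in knockout at 3 days and from 44.3% to 34.6% on average. An offset of 50 gave 13 in knockout at 14 days, 1 and 2 in treated knockout against wild type, and 1 for the response difference at 14 days. Without a detection filter, wild type at 14 days gave 10, and treated knockout against wild type 1 and 2. The mean of a gene's probes gave 13 in knockout at 14 days. The fit restricted to the groups compared gave 27 in wild type and 3 in knockout at 3 days, 5 in knockout at 14 days, 2 in treated knockout against wild type at 14 days, and 1 for time in wild type. Trend and robust variance gave 1 in treated knockout against wild type at 3 days and 1 for the response difference at 14 days.

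The replicate block gave 13 in knockout at 14 days and no other count moved past 1.5 times. Shared replicate numbers did not pair the samples: in 2 of 28 pairs of groups every same-numbered correlation was over 0.1, the median was 0.0071, and 10 of 24 arrays were closest to their own number.

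Leaving out 1 array at a time gave 9 to 12 in wild type at 3 days, 8 to 12 at 14 days, 12 to 24 in knockout at 3 days, 5 to 16 at 14 days and 45 to 52 on average. Knockout against wild type gave 0 to 1 untreated at 3 and at 14 days, 0 to 1 treated at 3 days and 1 to 4 treated at 14 days. The response difference gave 0 to 0 at 3 days and 0 to 1 at 14 days, and time gave 0 to 0 in wild type and 0 to 3 in knockout. Members near background, 40 of which were detected on 3 to 5 arrays, have compressed changes.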
